A study of Mus musculus with 12 samples.

Results

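The genes described here are 44 genes of DNA replication and S phase, given as a list of gene symbols and matched to the symbols of the deposited tables, where each of the 44 was found once among 34678 symbols. Their levels were read in 12 tumors grown in C57BL/6 mice from LLC1-shLkb1, a mouse Lewis lung carcinoma line with a hairpin RNA against Lkb1, the kinase gene also named Stk11. The paper grew tumors of this line both under the skin and in the chest, and does not state the site of those sequenced. The arms were vehicle (control immunoglobulin G), palbociclib (an inhibitor of the cell-cycle kinases CDK4 and CDK6, 100 mg/kg by mouth on some days of each weekly cycle), an antibody against PD-1 (200 µg per mouse, into the peritoneum) or the combination. Tumors were taken after 2 weeks, 3 per arm. Whether mice on palbociclib alone also received control immunoglobulin G is not given in the sources used here. All 4 arms carry the hairpin, and no tumor with unmodified Lkb1 was analysed here, so the knockdown itself cannot be checked, and Stk11 was read at 7.90 to 11.5 FPKM in the 12 tumors. The time between the last dose of palbociclib and collection is not given in the sources used here. The line is a single transplanted line and the samples are whole tumors, in which more dividing cells and more RNA per dividing cell cannot be told apart.

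Before a cell copies its DNA, the origin recognition complex with CDC6 and CDT1 loads the ring of MCM2 to MCM7 onto origins in G1, and CDC45 and the GINS complex then turn that ring into an active helicase at the start of S phase. DNA polymerase alpha with primase starts each strand, polymerases epsilon and delta extend it while held by the PCNA clamp, and ribonucleotide reductase and thymidine kinase supply the deoxynucleotides. Many of these genes are known targets of E2F transcription factors, which the retinoblastoma protein restrains until CDK4 and CDK6 phosphorylate it.

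Levels are in FPKM, mapped fragments scaled to gene length and library size, which are per length and so can be compared between genes. Library depth, estimated from the steps of low FPKM values, was 14900000 to 20300000 fragments per tumor, with arm medians of 15500000 (vehicle), 16200000 (palbociclib), 18500000 (anti-PD-1) and 16200000 (combination). The lowest estimate for any member in any tumor was 145 fragments (Gins1) and the median was 1220, so none of the 44 sits near the detection limit. Markers of tissue around a tumor stood out in some samples. Summed over 6 adipocyte markers, FPKM was 0 to 0.773 in the 6 tumors without palbociclib and reached 348 in a palbociclib tumor and 817 in a combination tumor, and 6 skin markers averaged 4.96 log2 units in palbociclib replicate 2 but no more than -2.19 in the rest. Averages of 8 skeletal muscle markers were 3.60 in palbociclib replicate 3, 3.64 in combination replicate 2, 2.36 in vehicle replicate 1 and at most 0.14 elsewhere. Of 7 lung epithelial markers Nkx2-1, Sftpc and Scgb1a1 were at 0 in all 12 tumors of this lung carcinoma line. Of the others, Sftpb reached at most 0.0944 FPKM, Epcam 1.81 and Krt18 5.08, while Krt8 measured 62 to 276 FPKM. Values without palbociclib replicates 1 and 2 and combination replicates 1 and 2 are given beside the main counts. Only palbociclib-treated tumors were left out in this way. Left in are palbociclib replicate 3 and vehicle replicate 1, which are themselves high in muscle markers, so those values are not free of host tissue. They also leave 1 tumor in each palbociclib-treated arm, which is assumed to vary like the vehicle and anti-PD-1 tumors that then supply the spread.

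All 44 members were expressed in every tumor, and the vehicle arm had the lowest mean log2 level for 43 of them. The combination arm had the highest mean for 35 members, the anti-PD-1 arm for 6 and the palbociclib arm for 3. Over all 15350 genes tested the vehicle arm was lowest for 30.3% and the combination highest for 25.5%. Averaged over the 44 members, log2(FPKM + 0.1) was 4.10, 3.83 and 3.90 in the vehicle tumors, 4.23, 4.27 and 4.25 with palbociclib, 4.43, 4.14 and 4.01 with anti-PD-1 and 4.37, 4.42 and 4.38 with the combination. The palbociclib and combination tumors each lay close together and above all 3 vehicle tumors, whereas anti-PD-1 replicate 1 was the highest tumor of all and anti-PD-1 replicate 3 lay below vehicle replicate 1. On the linear scale the members summed to 888 to 1022 FPKM with vehicle, 1119 to 1155 with palbociclib, 977 to 1281 with anti-PD-1 and 1229 to 1274 with the combination.

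**Figure D1:**
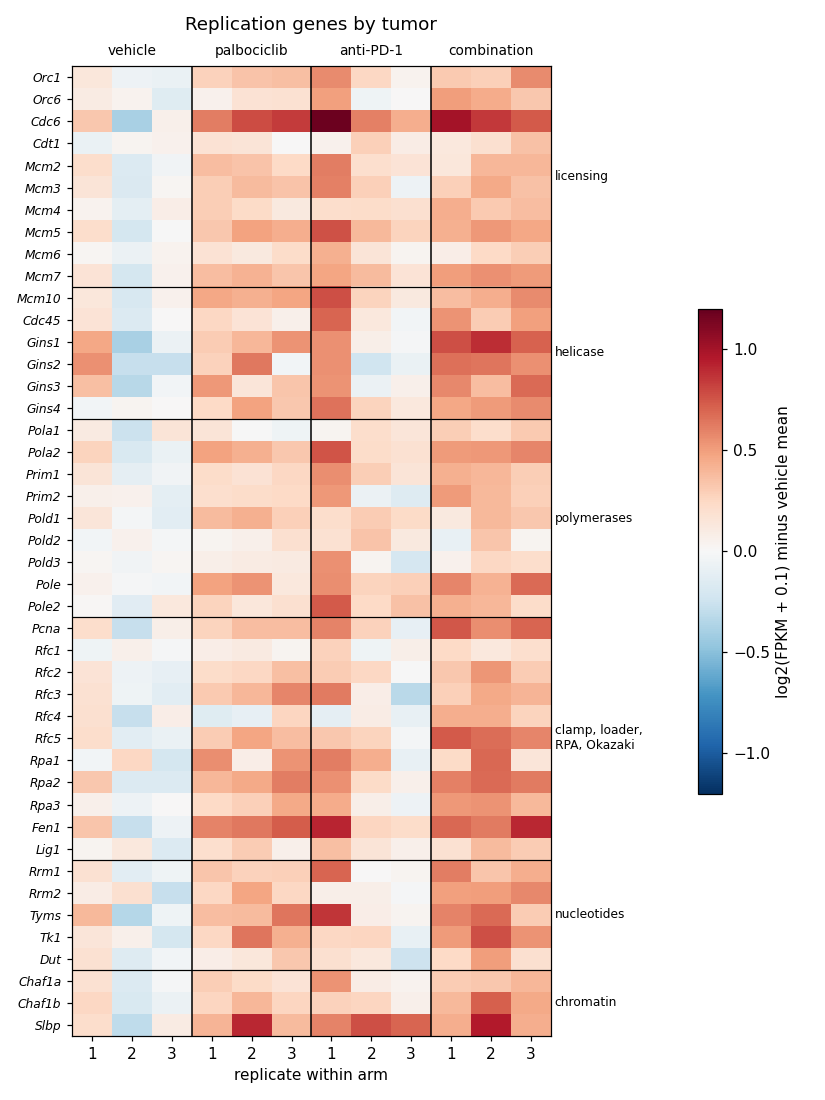
Each row is 1 of the 44 genes grouped by role, each column 1 tumor (replicates 1 to 3 of each arm), and the color is log2(FPKM + 0.1) minus the mean of the 3 vehicle tumors of that gene. Vehicle replicate 2 is the lowest tumor for 26 genes, anti-PD-1 replicate 1 the highest for 20 and combination replicate 2 the highest for 12.

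The main comparison asked how the members differ with palbociclib. The palbociclib effect is the mean of 2 differences, palbociclib minus vehicle and combination minus anti-PD-1, on the log2(FPKM + 0.1) scale, so all 12 tumors enter it. It was above 0 for 43 of the 44 members, with a median of 0.24 and a range of -0.01 (Pold2) to 0.50 (Gins1), while the median of all genes tested was 0.055, of which 59.8% were above 0. No member passed an adjusted p of 0.05 in limma (0 of 44, against 48 of all genes, 0.313%), and the adjusted p of members ran from 0.0654 to 0.945. At an unadjusted p under 0.05, 23 of 44 members (52.3%) were higher with palbociclib and 0 were lower, against 14.1% of all genes that were higher. The members vary together from tumor to tumor, so these 23 are not 23 independent results.

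Single tumors decided whether any member passed. Without anti-PD-1 replicate 1, 17 members passed at an adjusted p of 0.05 (Cdc6, Fen1, Gins1, Gins4, Mcm10, Mcm7, Orc6, Pcna, Pola2, Prim2, Rfc3, Rfc5, Rpa2, Rpa3, Rrm1, Rrm2 and Tk1), all higher, 772 of all genes passed, and 37 members had an unadjusted p under 0.05. Without vehicle replicate 1, 8 members passed (Chaf1b, Fen1, Gins1, Mcm7, Rfc5, Rpa2, Rrm2 and Tk1), all higher, and 695 of all genes passed. These are the tumors with the highest member mean in their arms. Without any other single tumor the number was 0. The share of all genes at an unadjusted p under 0.05 is not given for fits without single tumors, here or below. Member counts at that level therefore have no background in those fits. With those 4 palbociclib-treated tumors left out the median member effect was 0.23. The count at an unadjusted p under 0.05 was then 5, from arms of 1 tumor whose spread is taken from the other arms, so it is not comparable with the 23.

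**Figure D2:**
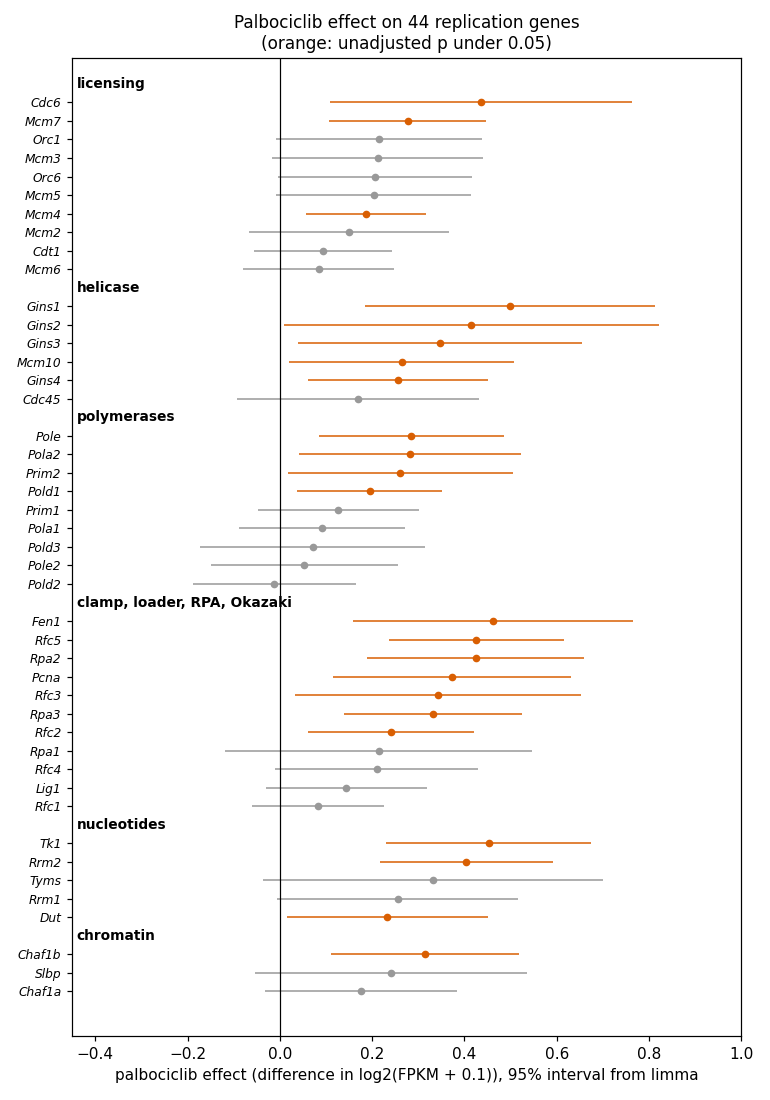
Points are the palbociclib effect of each of the 44 genes in log2 units with the 95% interval from limma, grouped by role and orange where the unadjusted p is under 0.05. All points but that of Pold2 lie above 0, and the medians of the roles run from 0.13 for polymerases and primase to 0.33 for nucleotide supply.

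Origin licensing genes had a median palbociclib effect of 0.21, and 3 of 10 had an unadjusted p under 0.05. Cdc6, which loads the MCM ring and was the member with the widest range over the tumors, measured 3.85, 2.31 and 3.20 FPKM in the vehicle tumors, 4.74, 5.33 and 5.56 with palbociclib, 7.03, 4.69 and 4.17 with anti-PD-1 and 6.22, 5.58 and 5.15 with the combination. All 9 treated tumors lay above all 3 vehicle tumors, and anti-PD-1 replicate 1 was the highest. Its palbociclib effect was 0.44 ± 0.15 (SE, adjusted p = 0.153) and the combination exceeded vehicle by 0.86, the largest such difference among the members.

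The 6 ring subunits Mcm2 to Mcm7 had mean levels of 20.1 (Mcm2) to 71.8 FPKM (Mcm5). Mcm5 measured 64.8, 48.4 and 56 FPKM in the vehicle tumors, 70.0, 78.4 and 75.7 with palbociclib, 94.9, 73.6 and 67.5 with anti-PD-1 and 75.2, 80.3 and 77.1 with the combination. Treated tumors of every arm exceeded the 3 vehicle tumors but overlapped among themselves, and the palbociclib effect was 0.20 ± 0.10 (adjusted p = 0.259). Mcm7 measured 28.7, 22 and 26.4 FPKM in the vehicle tumors, 33, 34.2 and 32.1 with palbociclib, 35.4, 33.2 and 28.6 with anti-PD-1 and 36.2, 37.3 and 36.4 with the combination. Here the 3 combination tumors were above the other 9, the palbociclib tumors were above vehicle, and anti-PD-1 replicate 3 fell within the vehicle range, with a palbociclib effect of 0.28 ± 0.08 (adjusted p = 0.111). Mcm4 measured 45, 40.2 and 46.2 FPKM in the vehicle tumors, 53.6, 51.3 and 47.3 with palbociclib, 50.7, 51 and 50.1 with anti-PD-1 and 59.1, 54.4 and 56.5 with the combination. Both separations seen in the other subunits held for Mcm4, whose 9 treated tumors exceeded vehicle and whose combination tumors exceeded all others, with a small effect of 0.19 ± 0.06 (adjusted p = 0.132). Mcm6 and Cdt1, the licensing factor that geminin holds back, had the smallest effects of this group at 0.08 and 0.09.

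Since E2F control is the textbook link between these genes and CDK4 and CDK6, their promoters were searched for E2F sites. RefSeq promoter windows (GRCm38.p6, from 250 bases before to 50 after the start of transcription) were used for 37 of the 44, all but Mcm4, Gins1, Gins2, Gins4, Prim2, Pole and Rfc2. The 4 motifs TTTCCCGC, TTTCGCGC, TTTGCCGC and TTTGGCGC were searched on both strands, and overlapping matches were counted once. At least 1 was present in 14 of 37 members (37.8%) against 2.6% of 27025 genes with windows, and in 1 of 19 mitosis and G2/M genes (5.26%). The CHR motif TTTGAA of mitotic promoters, also on both strands, was present in 13.5% of members, 73.7% of mitosis and G2/M genes and 20.2% of all genes, and CCAAT in 62.2%, 89.5% and 41.1%. Matching windows of 80 bases are shown for Cdc6, Mcm5 and Mcm7, the licensing genes with values in every tumor above that have one. Each is read 5′ to 3′ on the strand of the gene, with the E2F match in capitals. The licensing genes Mcm6 and Orc1 also have such windows, which are not shown. The Cdc6 window is chr11:98907977-98908056 on the plus strand with its match starting 138 bases before the start of transcription. The Mcm5 window is chr8:75109322-75109401 on the plus strand with 2 overlapping matches starting 153 bases before the start. The Mcm7 window is chr5:138172005-138172084 on the minus strand with a match 165 bases before the start. Mcm7 has another match 16 bases after the start, which is not shown.
Cdc6: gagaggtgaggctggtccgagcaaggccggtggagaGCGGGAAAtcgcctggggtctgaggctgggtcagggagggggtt
Mcm5: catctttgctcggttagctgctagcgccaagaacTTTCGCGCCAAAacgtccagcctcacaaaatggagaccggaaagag
Mcm7: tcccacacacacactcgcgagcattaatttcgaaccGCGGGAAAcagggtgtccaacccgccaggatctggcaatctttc
The median palbociclib effect was 0.20 over the 14 members with a match and 0.26 over the 23 without one, with 5 and 11 members at an unadjusted p under 0.05. Over the 7 members whose windows were not searched it was 0.26, and all 7 had an unadjusted p under 0.05, so the split by motif leaves out 7 of the 23 members at that level. A match is a description of the letters and not a bound site, and no binding was measured.

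Helicase activation genes had a median palbociclib effect of 0.31, with 5 of 6 at an unadjusted p under 0.05. Gins1, a subunit of the GINS complex, measured 11.3, 6.21 and 7.77 FPKM in the vehicle tumors, 10.1, 10.8 and 11.9 with palbociclib, 12, 8.57 and 8.10 with anti-PD-1 and 14, 15.2 and 13.4 with the combination. Every combination tumor lay above the 9 others, while vehicle replicate 1 fell inside the palbociclib range. Gins1 had the largest palbociclib effect of the 44 at 0.50 ± 0.14 (adjusted p = 0.114), and its combination mean exceeded its vehicle mean by 0.79. Gins4, the GINS subunit with the highest level, measured 19.8, 20.8 and 20.3 FPKM in the vehicle tumors, 23.9, 28.4 and 25.4 with palbociclib, 31.9, 24.5 and 22.1 with anti-PD-1 and 28, 29 and 30.1 with the combination. Its 3 vehicle tumors were within 1.1 FPKM of each other and below all 9 treated tumors, with a palbociclib effect of 0.26 ± 0.09 (adjusted p = 0.154). Gins2, Gins3 and Mcm10 had effects of 0.41, 0.35 and 0.26. Cdc45, which travels with the ring, was at 0.17 and did not reach an unadjusted p of 0.05.

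Polymerase and primase genes had the smallest median palbociclib effect of the roles, 0.13, with 4 of 9 at an unadjusted p under 0.05. Pole, the catalytic subunit of the leading-strand polymerase epsilon, measured 7.48, 7.12 and 7.05 FPKM in the vehicle tumors, 10.1, 10.5 and 7.90 with palbociclib, 10.7, 8.73 and 8.80 with anti-PD-1 and 10.9, 9.67 and 11.6 with the combination. All 9 treated tumors were above vehicle, palbociclib replicate 3 least so, and the effect was 0.28 ± 0.09 (adjusted p = 0.136). Its partner subunit Pole2 measured 12.6, 11.3 and 13.6 FPKM in the vehicle tumors, 15, 13.7 and 14.3 with palbociclib, 20.8, 14.7 and 15.9 with anti-PD-1 and 16.8, 16.5 and 14.5 with the combination. Treated tumors again exceeded vehicle, but the closest values were 13.7 and 13.6 FPKM, and the palbociclib effect was only 0.05 ± 0.09 (adjusted p = 0.765) beside an anti-PD-1 effect of 0.29 ± 0.09.

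Pold1, the catalytic subunit of the lagging-strand polymerase delta, measured 13.4, 11.9 and 11.1 FPKM in the vehicle tumors, 15.8, 16.3 and 14.8 with palbociclib, 14, 15 and 14.2 with anti-PD-1 and 13.1, 15.9 and 15.2 with the combination. Palbociclib and anti-PD-1 tumors were above vehicle, and combination replicate 1 lay within the vehicle range. Its palbociclib effect was 0.20 ± 0.07 (adjusted p = 0.172). Pold2, the accessory subunit of polymerase delta and the highest of this role, measured 56, 59.5 and 56.6 FPKM in the vehicle tumors, 58.6, 59.7 and 65.6 with palbociclib, 65.3, 72.5 and 62.1 with anti-PD-1 and 53.8, 72.4 and 58.8 with the combination. The palbociclib and combination tumors overlapped the vehicle tumors, and the 3 anti-PD-1 tumors lay above them. Its palbociclib effect of -0.01 ± 0.08 (adjusted p = 0.945) had a 95% interval of -0.19 to 0.16, and its sign changed when single tumors were left out.

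**Figure D3:**
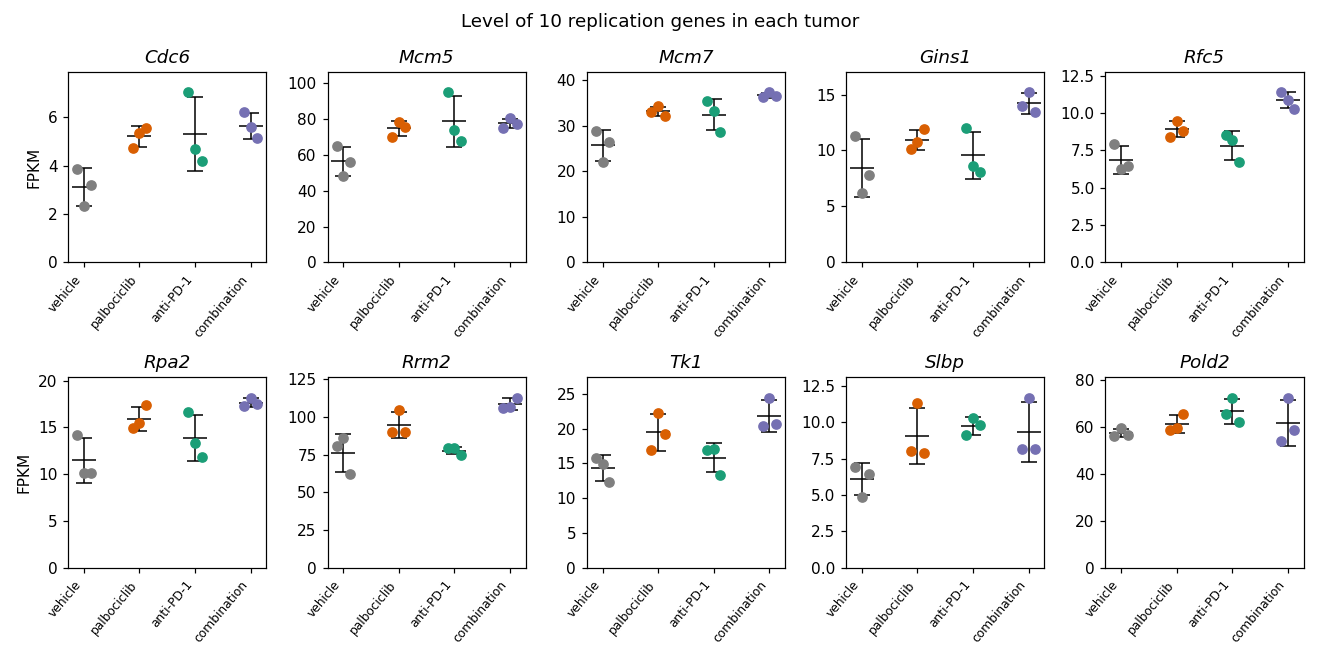
FPKM of 10 of the genes in each tumor on axes from 0, with points for the 12 tumors, a dash for the arm mean and bars of 1 SD (n = 3). The combination tumors exceed the 9 others in Mcm7, Gins1, Rfc5 and Rrm2, whereas both palbociclib-treated arms of Pold2 overlap vehicle.

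Genes of the clamp, its loader, single-strand binding and Okazaki fragment maturation had a median palbociclib effect of 0.33, and 7 of 11 had an unadjusted p under 0.05. Rfc5, a subunit of the replication factor C clamp loader, measured 7.90, 6.24 and 6.43 FPKM in the vehicle tumors, 8.42, 9.48 and 8.82 with palbociclib, 8.56, 8.21 and 6.70 with anti-PD-1 and 11.4, 10.9 and 10.3 with the combination. The 9 other tumors all lay below those of the combination, the palbociclib tumors lay above vehicle, and anti-PD-1 overlapped vehicle. Its palbociclib effect of 0.43 ± 0.09 came closest of the 44 to passing (adjusted p = 0.0654), and it also had the smallest p against vehicle with the combination (0.66 ± 0.12, adjusted p = 0.16). The large subunit Rfc1 was the steadiest member, at 18, 19.4 and 18.5 FPKM in the vehicle tumors, 19.7, 20.1 and 19 with palbociclib, 22.6, 18 and 19.6 with anti-PD-1 and 22, 20.3 and 21.5 with the combination. The arms of Rfc1 differed little, with an effect of 0.08 ± 0.07 (adjusted p = 0.484).

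Rpa2, the middle subunit of the single-strand binding protein RPA, measured 14.2, 10.1 and 10.1 FPKM in the vehicle tumors, 14.9, 15.5 and 17.4 with palbociclib, 16.6, 13.3 and 11.8 with anti-PD-1 and 17.3, 18.2 and 17.5 with the combination. Both palbociclib-treated arms lay above vehicle and overlapped each other at 17.3 and 17.4 FPKM, with an effect of 0.42 ± 0.11 (adjusted p = 0.0911). Pcna, the sliding clamp itself, measured 53.7, 38.2 and 48.6 FPKM in the vehicle tumors, 56, 60.0 and 60.1 with palbociclib, 70.0, 56.1 and 43.4 with anti-PD-1 and 77.7, 68.5 and 75.3 with the combination. Combination tumors were above palbociclib tumors and these above vehicle, while anti-PD-1 spread from inside the vehicle range to inside the combination range. The effect on Pcna was 0.37 ± 0.12 (adjusted p = 0.132). Fen1, the flap nuclease of Okazaki fragments, was at 0.46, and Lig1, which seals them, at 0.14.

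Nucleotide supply genes had a median palbociclib effect of 0.33, with 3 of 5 at an unadjusted p under 0.05. Rrm2, the small subunit of ribonucleotide reductase that limits its activity in S phase, was the highest of all 44 members and measured 80.5, 86.1 and 62.2 FPKM in the vehicle tumors, 89.8, 105 and 90.0 with palbociclib, 79.2, 79.4 and 74.8 with anti-PD-1 and 106, 107 and 113 with the combination. It was the only member whose 6 palbociclib-treated tumors all lay above the 6 others (1 of 44, against 1.02% of all genes), with an effect of 0.40 ± 0.09 (adjusted p = 0.0736). Tk1, the S phase thymidine kinase, measured 15.8, 14.9 and 12.3 FPKM in the vehicle tumors, 17, 22.3 and 19.2 with palbociclib, 16.9, 17.1 and 13.4 with anti-PD-1 and 20.4, 24.5 and 20.7 with the combination. Only the overlap of palbociclib replicate 1 with anti-PD-1 replicate 2, at 17.0 and 17.1 FPKM, kept Tk1 from the same separation, and its effect was 0.45 ± 0.10 (adjusted p = 0.0776). The large reductase subunit Rrm1, Tyms (thymidylate synthase) and Dut (which removes dUTP) were at 0.26, 0.33 and 0.23.

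Among genes of chromatin assembly and histone mRNA, Chaf1b, a subunit of the CAF-1 chaperone that places histones on new DNA, measured 8.66, 6.37 and 6.92 FPKM in the vehicle tumors, 8.70, 9.61 and 8.72 with palbociclib, 8.83, 8.67 and 7.59 with anti-PD-1 and 9.55, 12 and 9.99 with the combination. Palbociclib tumors were above vehicle by as little as 0.04 FPKM, and the combination was above both vehicle and anti-PD-1, with an effect of 0.31 ± 0.09 (adjusted p = 0.122). Chaf1a, the large CAF-1 subunit, measured 41.1, 32.3 and 35.8 FPKM in the vehicle tumors, 44.6, 42.5 and 40.5 with palbociclib, 52.8, 38.5 and 37.3 with anti-PD-1 and 44.7, 45.4 and 47.8 with the combination. Anti-PD-1 replicate 1 was its highest tumor and the palbociclib arm reached into the vehicle range, with an effect of 0.17 ± 0.09 (adjusted p = 0.316). Slbp, which binds the stem-loop of replication-dependent histone mRNAs, measured 6.95, 4.84 and 6.42 FPKM in the vehicle tumors, 8.01, 11.3 and 7.85 with palbociclib, 9.11, 10.3 and 9.80 with anti-PD-1 and 8.13, 11.7 and 8.17 with the combination. All 9 treated tumors were above vehicle, the treated arms overlapped each other, and the effect averaged over both backgrounds was 0.24 ± 0.13 (adjusted p = 0.325).

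Arm by arm against vehicle, no member passed at an adjusted p of 0.05 in limma in any comparison. Palbociclib alone was higher than vehicle in all 44 members with a median of 0.33, and 21 had an unadjusted p under 0.05 (47.7%) against 9.43% of all genes that were higher (0.143% of all genes passed after adjustment). Its 3 tumors lay above the 3 vehicle tumors for 29 members (65.9%), against 12.9% of all genes. The combination was higher in all 44 with a median of 0.43 and a range of 0.09 to 0.86, and 38 (86.4%) had an unadjusted p under 0.05 against 8.64% of all genes (0.013% passed after adjustment). Its tumors lay above vehicle for 38 members (86.4%), against 10.8% of all genes. FPKM summed over all genes was 263396 to 268016 in the vehicle tumors and 275423 to 279110 in the combination tumors. With tumors scaled to the same FPKM sum, 26 members were higher with the combination at an unadjusted p under 0.05 in limma, against 885 of all genes. After quantile normalization there were 32, against 1076 of all genes. The member median was 0.37 in both. All 6 palbociclib-treated tumors were above the 3 vehicle tumors for 27 members, against 5.22%. These comparisons share the 3 vehicle tumors, so vehicle replicate 2, the lowest tumor of 26 members, enters each of them. Without it 10 members had an unadjusted p under 0.05 for palbociclib, and 23 for the combination, whose median was then 0.36. For palbociclib the number was also lower without vehicle replicate 3 (13) or palbociclib replicate 2 (10). Shares of all genes in these fits are not given, so a change in the members alone cannot be read from the counts. Without palbociclib replicates 1 and 2 and combination replicates 1 and 2 the medians were 0.30 and 0.40.

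Anti-PD-1 alone was higher than vehicle in 43 of 44 members, with a median of 0.22. In limma 0 members passed after adjustment, as did 0% of all genes, and 14 had an unadjusted p under 0.05 against 3.28% of all genes. Its tumors were above vehicle for 10 members (22.7%), against 4.25%, and for Cdc6, Mcm4, Mcm5, Gins4, Prim1, Pole, Pole2 and Slbp all 9 treated tumors were above vehicle (8 of 44, against 1.11% of all genes). Averaged over both backgrounds, the anti-PD-1 effect was above 0 for all 44 members with a median of 0.19. Of these 0 passed after adjustment (0% of all genes), and 16 had an unadjusted p under 0.05 against 1.64% of all genes. With tumors scaled to the same FPKM sum 11 members were higher at that level, against 117 of all genes. After quantile normalization there were 20, against 459 of all genes. Without anti-PD-1 replicate 1 the medians were 0.12 for anti-PD-1 against vehicle and 0.12 for the anti-PD-1 effect, and 8 and 11 members had an unadjusted p under 0.05. Without vehicle replicate 2 these numbers were 8 and 10, and without anti-PD-1 replicate 3 the second was 25.

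**Figure D4:**
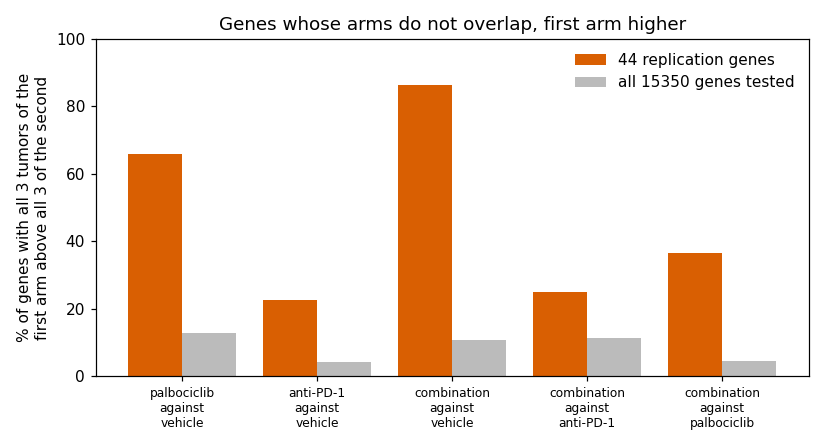
Bars give the percentage of genes whose 3 tumors of the first arm all lie above the 3 of the second, for the 44 genes (orange) and for all 15350 genes tested (gray), on an axis from 0. The share of the 44 is 86.4% for the combination against vehicle and 25% for the combination against anti-PD-1, where all genes give 10.8% and 11.4%.

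Between the treated arms the differences were smaller. The combination exceeded anti-PD-1 by a median of 0.17 over the members, with 0 passing after adjustment in limma (0.00651% of all genes), 9 at an unadjusted p under 0.05 against 7.61%, and 11 not overlapping (25%) against 11.4%. Without anti-PD-1 replicate 1 the median was 0.30 and 23 had an unadjusted p under 0.05, and without anti-PD-1 replicate 3 the median was 0.07, with 13 of 44 members below 0 and 4 at an unadjusted p under 0.05. The combination exceeded palbociclib by a median of 0.14, with 0 passing after adjustment in limma (0.00651% of all genes) and 2 members, Rfc4 (0.37) and Rfc5 (0.28), at an unadjusted p under 0.05 against 1.06%, a number that ran from 0 (without combination replicate 1 or 2) to 5 (without anti-PD-1 replicate 1). For 16 members (36.4%) its 3 tumors lay above the 3 palbociclib tumors, against 4.52% of all genes, and for 6 (Mcm4, Mcm7, Gins1, Rfc4, Rfc5 and Rrm2) above all 9 other tumors, against 0.879%. Tumors were also closely spaced within both of these arms. The median SD of a member was 0.086 log2 units with palbociclib and 0.10 with the combination, against 0.17 with vehicle and 0.26 with anti-PD-1. Over all genes tested the medians were 0.17, 0.16, 0.25 and 0.22 in the same order.

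The interaction is the palbociclib difference in the presence of anti-PD-1 minus that in its absence. It was below 0 for 28 of 44 members with a median of -0.10. The share above 0 was 36.4% of members and 48.2% of all genes, and 0 members passed in limma after adjustment (0% of all genes). The 2 members with an unadjusted p under 0.05 were Slbp (-0.65 ± 0.27, adjusted p = 0.866) and Pold1 (-0.34 ± 0.14, adjusted p = 0.866), both below 0, against 3.34% of all genes below 0. Cdc6 was at -0.63 ± 0.30 and Mcm5 at -0.42 ± 0.19. For these 4 genes the combination differed from either agent alone by -0.09 to 0.12. The median moved with single tumors, to 0.00066 without anti-PD-1 replicate 1 and -0.05 without vehicle replicate 2, and to -0.21 (37 of 44 below 0) without anti-PD-1 replicate 3, -0.17 (36 below 0) without vehicle replicate 1 and -0.15 (32 below 0) without anti-PD-1 replicate 2. Without single tumors the number of members below 0 at an unadjusted p under 0.05 ran from 0 to 5, the highest without vehicle replicate 1.

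Genes of related function were compared with the members through lists of their own. Of 40 other replication genes, 15 were higher and 1 was lower at an unadjusted p under 0.05 in the palbociclib effect, with a median of 0.21. The lower one was Pold4, the small subunit of polymerase delta (-0.26 ± 0.11, adjusted p = 0.223), and the smallest p was that of Dck, the deoxycytidine kinase (0.40 ± 0.08, adjusted p = 0.0628). Of 22 mitosis and G2/M genes all were above 0 with a median of 0.31 and 14 had an unadjusted p under 0.05, among them Birc5 (survivin, 0.51) and Cdk1 (0.38). Of 21 RB, E2F and G1/S regulators 11 were higher at that level with a median of 0.26, led by E2f8, a repressive E2F (0.44, adjusted p = 0.0804), and Ccne1, cyclin E1 (0.66, adjusted p = 0.0828). Ccnd1, cyclin D1, the partner of CDK4 and CDK6, was at 0.52 (adjusted p = 0.112), and the CDK inhibitors Cdkn1b and Cdkn1a at -0.36 and -0.15. The 10 scaling controls had a median of -0.001 with 0 at an unadjusted p under 0.05. Against vehicle their medians were 0.048 for palbociclib, 0.10 for the combination and 0.14 for anti-PD-1, beside member medians of 0.33, 0.43 and 0.22. Of the 10 controls 8 were above 0 for the combination and 9 for anti-PD-1. In the anti-PD-1 effect 9 were above 0 with a median of 0.091, beside 0.19 for the members. In limma 0 genes of these lists passed after adjustment. Differences between the lists were not tested.

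**Figure D5:**
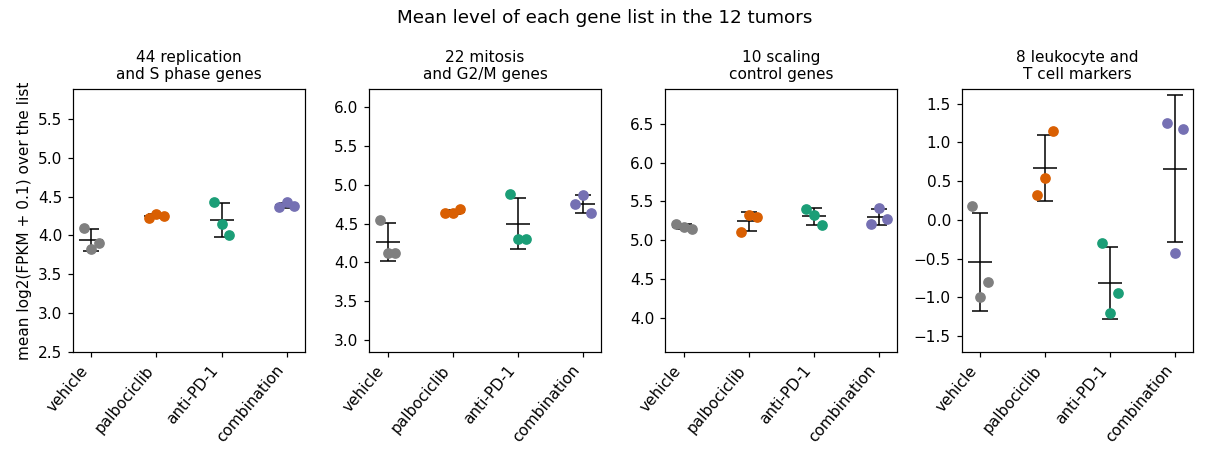
Mean log2(FPKM + 0.1) of 4 gene lists in each of the 12 tumors by arm, with points for tumors, a dash for the arm mean and bars of 1 SD (n = 3), on axes of equal span. The 44 replication genes and the 22 mitosis and G2/M genes are lowest in vehicle and highest on average in the combination, the scaling controls span 5.10 to 5.41, and the leukocyte and T cell markers are higher in most palbociclib-treated tumors.

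Markers of some other cells also differed between the palbociclib-treated arms and the others. The 8 pan-leukocyte and T cell markers had palbociclib effects of 0.56 to 1.79 (median 1.36), 7 of 8 at an unadjusted p under 0.05, and summed to 4.33 to 9.44 FPKM with vehicle, 11 to 19.4 with palbociclib, 3.35 to 6.68 with anti-PD-1 and 6.17 to 20.6 with the combination. Dividing leukocytes cannot be told apart from dividing tumor cells here. Of 6 adipocyte markers 5 were higher at that level, and of 5 endothelial markers 3 were lower. Of 6 fibroblast markers 0 were higher and 1 was lower. Of 2 B and plasma cell markers tested 1 was higher, and of 3 lung epithelial markers tested 0 were higher or lower. Myeloid markers split, with 2 of 7 higher and 2 lower, and summed to 101 to 546 FPKM over the 12 tumors. Their part in the levels of the replication genes was not tested.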

How the data were processed

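RNA of 12 bulk tumors, 3 in each of 4 arms, was measured. The authors deposited 1 table of FPKM values per tumor. The submitters' processing notes name HISAT2 and the build GRCm38 (mm10), and the counting tool and gene annotation are not given in the sources used here. Of 34745 entries 67 repeated a symbol, of which only the highest on average was used. Arms were taken from the sample labels. Tumors of an arm were taken to come from different mice, so p-values measure the spread between tumors. That spread is 1 estimate per gene shared by all 4 arms. The median SD of a member was 0.086 with palbociclib and 0.10 with the combination, against 0.17 with vehicle and 0.26 with anti-PD-1. The p-values and SEs of single comparisons do not reflect this difference.

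A mean FPKM of 0.1 or more was required (15350 genes, all 44 members included). The test was limma 3.58.1 run in R 4.3.3 on log2(FPKM + 0.1) values (eBayes with a trend, 1 mean per arm, 8 contrasts, Benjamini-Hochberg adjustment over all genes tested, threshold 0.05). Fold changes on this scale understate those of low genes. The fit was tested on simulated data. Depth was estimated from the steps of low FPKM values and gene lengths in GENCODE M21. Promoters came from RefSeq (GRCm38.p6). Tables and figures were made with Python 3.11.15, pandas 2.3.3, numpy 2.4.6 and matplotlib 3.10.9.

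The members and all gene lists were chosen with earlier results of these data known. Values in every tumor are given for 19 members: in each role the 2 with the smallest p and the one with the highest mean, the 3 with the smallest p in the interaction and in the anti-PD-1 effect, and those with the widest and narrowest range. Other members are given by values or counts. Alternatives were a pseudocount of 1 or 0.01, a filter at mean FPKM 1 or none, equal FPKM sums, quantile normalization, no trend, the replicate number as a block, only the 2 arms compared for contrasts of 2 arms, leaving out each tumor and leaving out 4 palbociclib-treated tumors high in host tissue markers together.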

Additional observations from a re-analysis of the deposited data

How the results depend on the processing

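In all alternatives the median member difference of each of the 8 contrasts moved by less than the spread between replicates (pooled SD of the member mean 0.13). That spread exceeds the size of the interaction median (-0.10) and is close to the median of the combination against palbociclib (0.14). This check therefore cannot tell whether medians that small are stable. No member passed in any of the other 7 contrasts under any alternative. In the palbociclib effect the number of members passing was 0 to 17 when single tumors were left out, and 1 (Tk1, adjusted p = 0.0495) with the replicate block, which raised the count of all genes from 48 to 129. What tumors of the same replicate number share is not given in the sources used here. Correlations of same-numbered tumors ran from -0.213 to 0.453, and those of differently numbered tumors from -0.353 to 0.309. Of the 12 tumors 6 correlated best with one of their own number.

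Counts at an unadjusted p under 0.05 were recomputed as an addition chosen after seeing the data. In the palbociclib effect they ran from 16 to 37 without single tumors and came to 5 without palbociclib replicates 1 and 2 and combination replicates 1 and 2, 4 tumors left out together. In the combination against vehicle they were 23 without vehicle replicate 2, up to 41 without single tumors, and 8 without the 4 tumors. That fit leaves 1 tumor in each palbociclib-treated arm, with the spread taken from the vehicle and anti-PD-1 tumors, and it keeps palbociclib replicate 3, which is high in muscle markers, so the 5 and 8 say nothing about dependence on host tissue. With equal FPKM sums the count in the palbociclib effect was 21, and with quantile normalization 16. All genes passing in the palbociclib effect ranged from 0 to 772 without single tumors, with 11 without a filter, 70 with a filter at 1 and 0 without a trend.

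The effect of Pold2 ran from -0.073 to 0.034 when single tumors were left out and was above 0 without vehicle replicate 2 (0.001), palbociclib replicate 1 (0.004), anti-PD-1 replicate 2 (0.019), combination replicate 1 (0.034) or 3 (0.002), and without the 4 tumors (0.008). That of Pole2 was -0.016 without the 4 tumors. In each the cause was not tested. With 3 tumors per arm and fragment depth known only as an estimate, differences as small as these were not detectable.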
